A study of Mus musculus with 9 samples.

Results

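Integrins and laminins are the receptors and the ligands through which lung cells hold on to their basement membranes. Integrins are surface receptors made of 1 α and 1 β subunit, and the pairing sets whether a cell binds laminin, collagen, fibronectin or a ligand on another cell. Laminins are secreted trimers of an α, a β and a γ chain that form the core of basement membranes under epithelium and around vessels and muscle. In lung, mouse mutants of several of these genes are known for defects of branching, of alveolar development or of the pleura and vessels.

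The genes were chosen by symbol alone, as the integrin α subunits, integrin β subunits and laminin chains of the annotated table, and they numbered 36 of the 27207 genes in it. They comprised 25 integrins, with 17 α and 8 β subunits, and 11 laminins. All 36 passed the filter on low counts, and 19374 genes in all were tested. Itgad, an α subunit of leukocytes that the symbol pattern would also take, was not analysed here.

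RNA came from whole mouse lungs at E18.5, shortly before birth, in 3 groups of 3 libraries. Strong CKO lungs were Dnmt1-D/D, with Tet-O-Cre driven through Tbx4-rtTA, and were hypoplastic with widespread bleeding in the parenchyma. Weak CKO lungs had the same genotype and were hypoplastic without bleeding. Wild type lungs are labelled as wild type, with no allele or agent named. CKO stands for conditional knockout of Dnmt1, the enzyme that copies DNA methylation at replication. Tbx4 regulatory sequences are known to drive rtTA, a doxycycline-dependent activator, in lung mesenchyme. The labels give no dose or time of an inducing agent and no litter.

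Library totals ran from 25607595 to 33156732 counts. Values per library are CPM, the counts scaled to a common library size with TMM factors, in the order MUT_S_265_5, MUT_S_268_4 and MUT_S_860_3 for strong CKO, MUT_W_265_2, MUT_W_268_3 and MUT_W_549_3 for weak CKO, and WT_265_1, WT_268_1 and WT_549_2 for wild type. A gene was called when its adjusted p in edgeR's quasi-likelihood test was under 0.05 over all genes tested. Dnmt1 itself ran from 62.0 to 78.7 CPM in strong CKO, from 59.1 to 80.6 CPM in weak CKO and from 79.1 to 121 CPM in wild type. Its log2 change was -0.53 in strong CKO (adjusted p = 0.0433), a call that 8 of 17 alternative settings kept, and -0.51 in weak CKO (adjusted p = 0.0727). The weak CKO change was called at 4 alternatives, among them DESeq2 (-0.52) and the omission of MUT_W_549_3 (-0.63) or WT_265_1 (-0.65). Both CKO groups were set against the same 3 wild type libraries, so their results are not independent of each other.

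In strong CKO against wild type, 15 of the 36 genes fell, 3 rose and 18 were not called. Over all genes tested, 11.0% fell and 14.6% rose in this comparison, and 25.6% were called either way. The libraries of strong CKO lay wholly below wild type for 19 of the genes and wholly above it for 6, where 19% and 22.7% of all genes did so. The median log2 change was -0.18 over the 36 genes, against -0.001 over all genes tested. In whole tissue, fewer cells of a type and less RNA per cell cannot be told apart. Without MUT_S_265_5 the number that fell was 9 in place of 15.

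In weak CKO against wild type, 5 genes fell, 2 rose and 29 were not called. Over all genes tested, 5.38% fell, 9.09% rose and 14.5% were called either way. Weak CKO libraries lay wholly below wild type for 12 genes and wholly above it for 3, where 13.8% and 17.7% of all genes did so. The median log2 change was -0.17 over the 36 genes and -0.0077 over all genes. Only 2 genes fell without MUT_W_268_3 or without WT_268_1, and 3 without MUT_W_549_3. The 5 genes that fell in weak CKO, among them Itga2, Itga8, Lama3 and Lamb2, were also called lower in strong CKO, and the 2 that rose, Itga7 and Itgb8, were also called higher there.

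**Figure D1:**
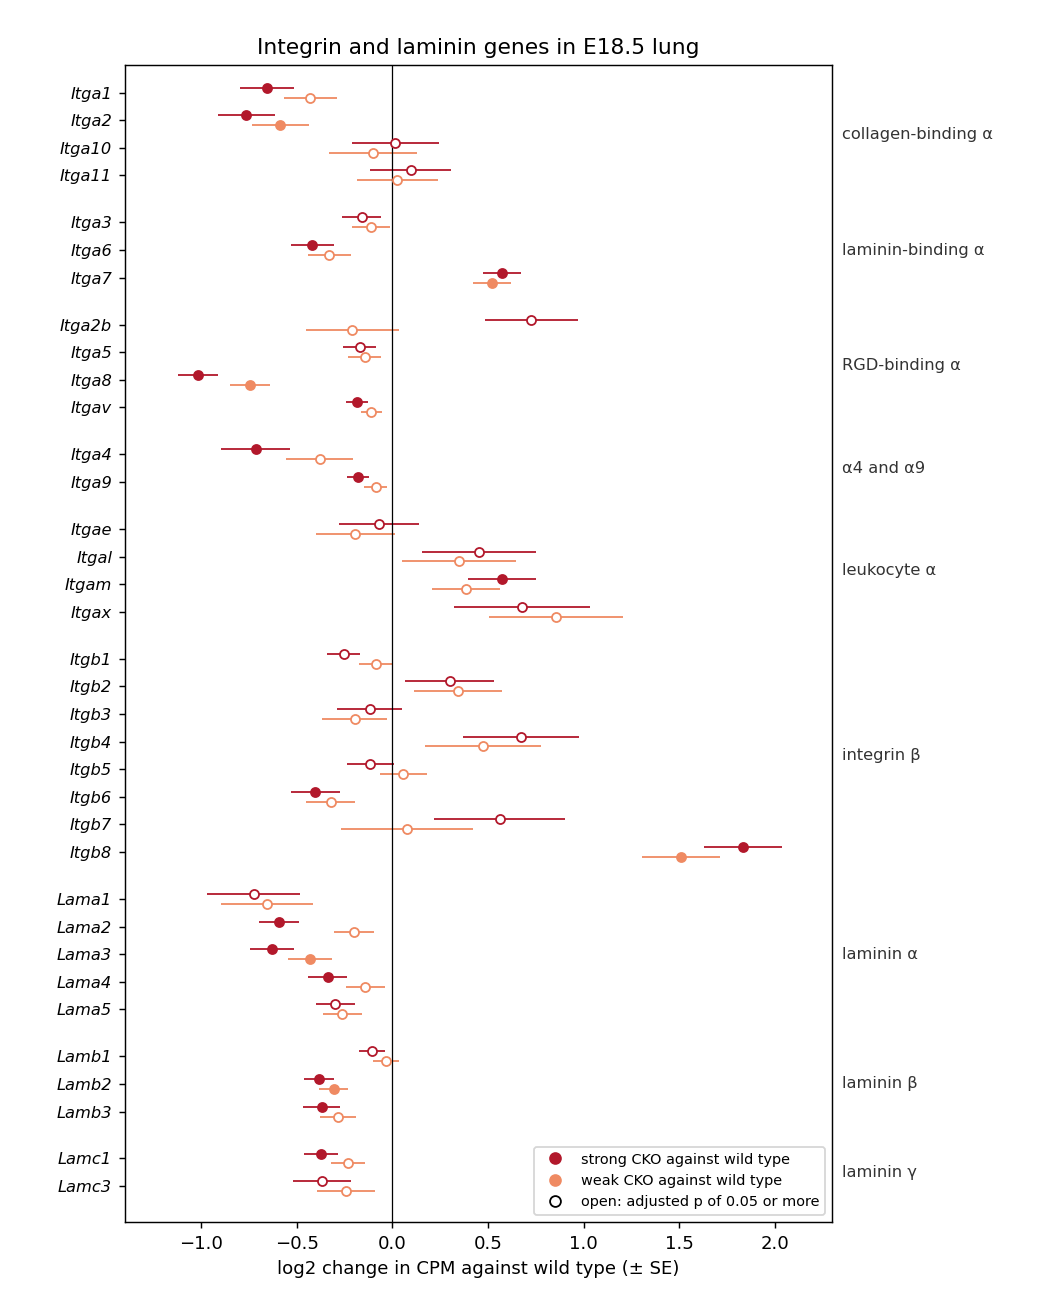
Log2 change of integrin and laminin genes against wild type, with its standard error, in strong CKO (dark red, upper point of each pair) and weak CKO (orange, lower point), grouped by role; filled points have an adjusted p under 0.05. The laminins shown lie left of 0 in both comparisons, Itga8 has the lowest value in both (-1.02 and -0.74), and Itgb8 the highest (1.83 and 1.51).

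Levels compare between genes only per length, so RPKM is used here. On the authors' RPKM scale, Itgb1, the β subunit shared by the laminin, collagen and most fibronectin receptors, had the highest level, at 129.7 ± 6.15 RPKM in strong CKO, 145 ± 1.12 RPKM in weak CKO and 153 ± 14.7 RPKM in wild type (SD, n = 3 each). Lamc1, the γ1 chain found in most laminins, averaged 78.5 ± 4.74, 86.2 ± 4.06 and 101 ± 9.67 RPKM in the same order of groups. The leukocyte α subunits Itgam, Itgae, Itgal and Itgax were each under 1 RPKM on average in every group, as were Itgb8, Itga10, Itga11, Itgb4, Itgb7 and Lama1. The gene length deposited with the table was 1.07 (Itga2) to 5.85 (Itgb4) times the length of each gene's merged GENCODE exons, so the order of neighbouring genes depends on the length used. With merged exon lengths, Lamb1 stood above Lamb2 in strong CKO, at 50.4 against 45.1 CPM per kilobase.

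**Figure D2:**
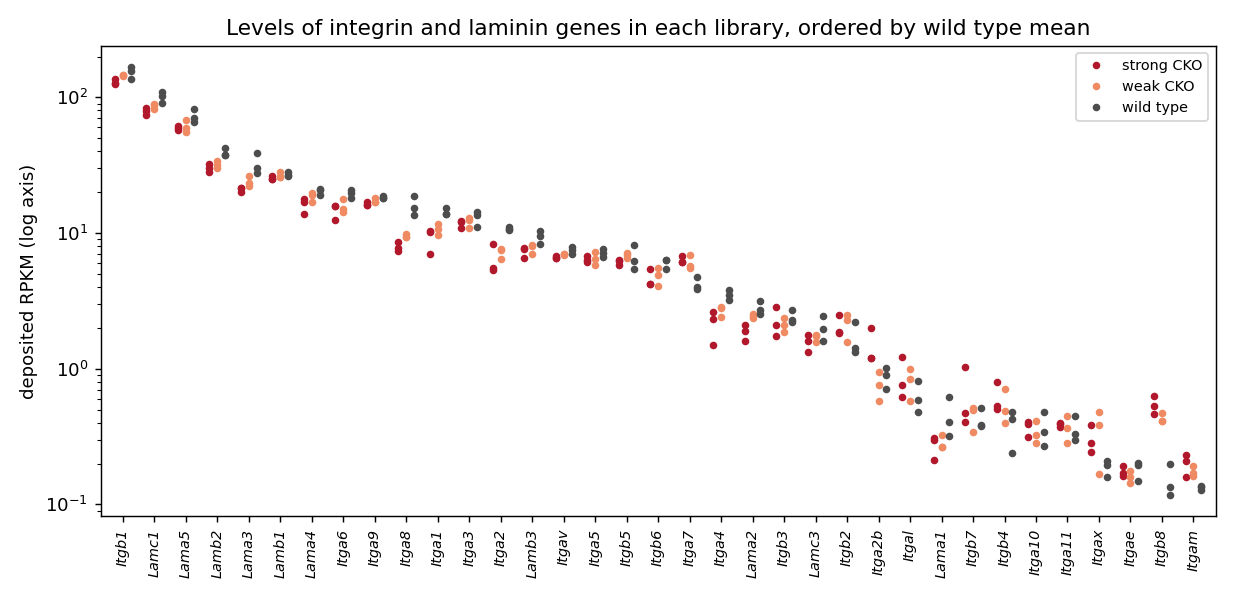
Deposited RPKM of integrin and laminin genes in each library on a log axis, ordered from left to right by the wild type mean, with strong CKO points to the left of weak CKO and wild type points to the right. Itgb1 lies highest, with wild type mean 153 RPKM, and Itgam lowest, with 0.133 RPKM; the Itgb8 points of wild type lie below those of both CKO groups.

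No laminin chain was called higher in either CKO group. In strong CKO, 7 of the 11 fell, Lama2, Lama3, Lama4, Lamb2, Lamb3 and Lamc1 among them, and 4 were not called. The median log2 change over the 11 was -0.37. In weak CKO, 3 fell, Lama3 and Lamb2 among them, 8 were not called, and the median was -0.26. Over all genes tested, 11.0% fell in strong CKO and 5.38% in weak CKO. Strong CKO overlapped wild type for 2 of the 11, and weak CKO for 5. All 11 had a negative log2 change in both comparisons, between -0.11 and -0.73 in strong CKO and between -0.03 and -0.66 in weak CKO. Of the 19374 genes tested, 9711 had a negative one in strong CKO and 9910 in weak CKO.

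Lama3 and Lamb3 encode the α3 and β3 chains, which belong to laminins of epithelial basement membranes. Lama3 measured 352, 380.1 and 378 CPM in strong CKO, 464, 417 and 393 CPM in weak CKO, and 539, 685 and 497 CPM in wild type. Every CKO library was below every wild type library, and WT_268_1 was the highest. The log2 change of Lama3 was -0.63 ± 0.12 in strong CKO (SE, adjusted p = 0.00326) and -0.43 ± 0.12 in weak CKO (SE, adjusted p = 0.0321). The weak CKO call of Lama3 was lost without MUT_W_268_3 (-0.42), MUT_W_549_3 (-0.38), WT_268_1 (-0.29) or MUT_S_860_3 (-0.43), with only the compared groups in the fit, and in both limma fits of RPKM.

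Lamb3 averaged 132 ± 11.7 CPM in strong CKO, 140.4 ± 11.3 CPM in weak CKO and 171 ± 18.1 CPM in wild type (SD, n = 3 each). Its fall in strong CKO was -0.37 ± 0.10 (SE, adjusted p = 0.0185), a call lost without MUT_S_860_3 (-0.29) or WT_268_1 (-0.30). In weak CKO, Lamb3 had a log2 change of -0.28 (adjusted p = 0.0764) and was called without WT_549_2 (-0.36).

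Lama2, the α2 chain of muscle and mesenchymal basement membranes, showed the widest gap between the CKO groups among laminins. It measured 50.8, 66.4 and 59.8 CPM in strong CKO, 79.6, 77.8 and 74.9 CPM in weak CKO, and 100.5, 86.6 and 80.4 CPM in wild type. The 3 groups did not overlap. Lama2 fell in strong CKO by 0.60 ± 0.11 on the log2 scale (SE, adjusted p = 0.00276), and its change in weak CKO was -0.20 ± 0.10 (SE, adjusted p = 0.234). Strong against weak CKO, the log2 change was -0.39 ± 0.11 (SE), with an unadjusted p of 0.00368 and an adjusted p of 0.873.

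Lama5, the α5 chain of mature epithelial and vascular basement membranes, was the α chain with the highest level per length. It measured 882, 821 and 853 CPM in strong CKO, 973, 800.1 and 847 CPM in weak CKO, and 1009, 1176 and 957 CPM in wild type. Its log2 change was -0.30 ± 0.10 in strong CKO (SE, adjusted p = 0.0551) and -0.26 ± 0.10 in weak CKO (SE, adjusted p = 0.118). The strong CKO change was called with DESeq2 (-0.31), without WT_549_2 (-0.36) and without MUT_W_265_2 (-0.30). Lama4, the α4 chain of endothelial and mesenchymal basement membranes, averaged 326 ± 43.0 CPM in strong CKO, 374 ± 30.1 CPM in weak CKO and 413 ± 23.9 CPM in wild type (SD, n = 3 each). Its strong CKO change was -0.34 ± 0.10 (SE, adjusted p = 0.0342), a call lost at 7 alternatives: without MUT_S_265_5 (-0.23), MUT_S_860_3 (-0.37), MUT_W_268_3 (-0.33), WT_268_1 (-0.33) or WT_549_2 (-0.30), with only the compared groups in the fit (-0.33) and on log2(RPKM + 1) (-0.31). Lama1, the α1 chain of early embryonic basement membranes, averaged 3.75 ± 0.74, 3.94 ± 0.47 and 6.21 ± 2.10 CPM in strong CKO, weak CKO and wild type (SD, n = 3 each), with a log2 change of -0.73 in strong CKO (adjusted p = 0.0524). Lama1 was called in strong CKO with DESeq2 (-0.73) and without WT_265_1 (-0.92), and in weak CKO without WT_265_1 (-0.85).

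Lamb2 and Lamb1, the β2 and β1 chains, moved by different amounts. Lamb2 measured 257, 293 and 273 CPM in strong CKO, 307, 273 and 287 CPM in weak CKO, and 344, 387 and 343 CPM in wild type, so that no CKO library reached a wild type one. Lamb2 fell by 0.38 ± 0.08 on the log2 scale in strong CKO (SE, adjusted p = 0.00542) and by 0.31 ± 0.08 in weak CKO (SE, adjusted p = 0.0261). The weak CKO call was lost without MUT_W_268_3 (-0.26), MUT_W_549_3 (-0.30) or WT_268_1 (-0.25) and with only the compared groups in the fit (-0.30). Lamb1 averaged 499.97 ± 18.9 CPM in strong CKO, 526 ± 25.1 CPM in weak CKO and 538 ± 20.999 CPM in wild type (SD, n = 3 each), with log2 changes of -0.11 (adjusted p = 0.284) and -0.03 (adjusted p = 0.793). As a share of the summed RPKM of the 3 β chains, Lamb1 made up 38.2 to 41.9% in strong CKO libraries, 38.2 to 42.1% in weak CKO libraries and 35.0 to 36.4% in wild type libraries. The shares did not overlap between either CKO group and wild type; with 3 values a side, 0.1 is the smallest two-sided p of an exact permutation test.

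Lamc1 measured 902, 1017 and 965 CPM in strong CKO, 1085, 1004 and 1088 CPM in weak CKO, and 1254, 1355 and 1126 CPM in wild type. The CKO libraries were all below the wild type ones. Its log2 change was -0.37 ± 0.09 in strong CKO (SE, adjusted p = 0.0131), a call lost without MUT_S_265_5 (-0.32), and -0.23 ± 0.09 in weak CKO (SE, adjusted p = 0.118). Lamc3, a γ chain of low level here, averaged 18.54 ± 2.56, 20.2 ± 1.30 and 23.9 ± 5.14 CPM in strong CKO, weak CKO and wild type (SD, n = 3 each), with log2 changes of -0.37 (adjusted p = 0.104) and -0.24 (adjusted p = 0.334). Without WT_268_1 the strong CKO change of Lamc3 was -0.51 and was called.

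**Figure D3:**
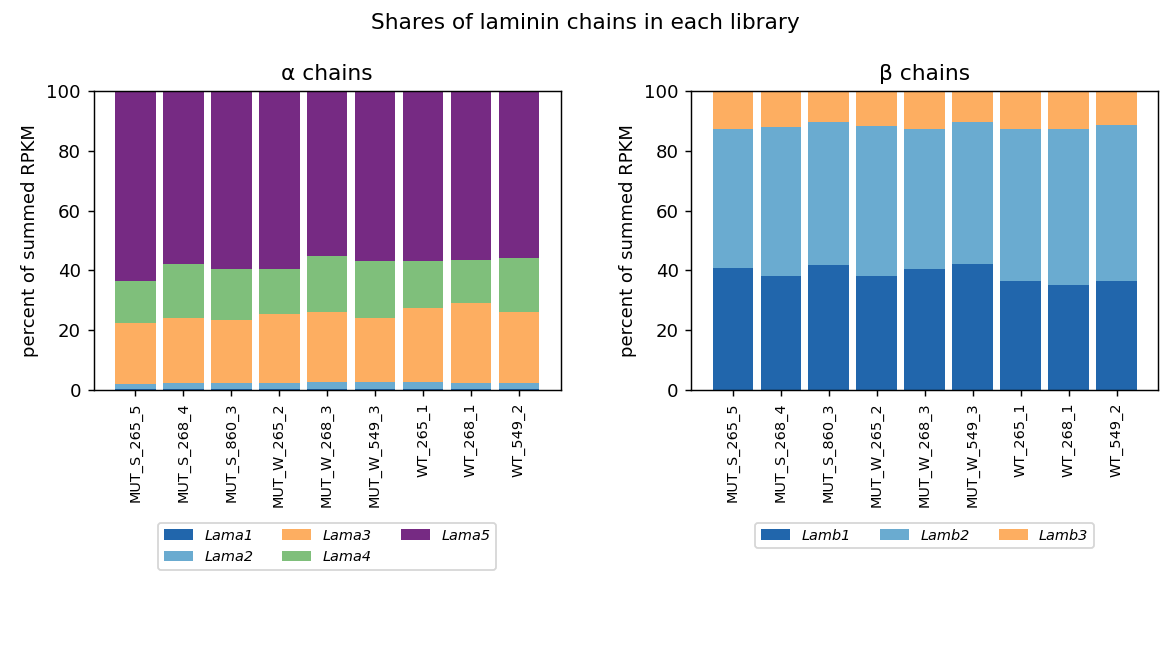
Each laminin chain as a percentage of the summed RPKM of the α chains (left) and β chains (right), with 1 stacked bar per library and strong CKO, weak CKO and wild type libraries from left to right. Lama5 holds most of the α sum in all 9 libraries, and the lowest segment of the β panel, Lamb1, is taller in the 6 CKO libraries than in the 3 wild type libraries.

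Epithelial markers went in different directions. Of 7 alveolar type 2 markers, 6 were called lower in strong CKO and 1 in weak CKO, and their summed level ran from 10622 to 12776 CPM in strong CKO, from 13882 to 14526 CPM in weak CKO and from 13600.5 to 19314 CPM in wild type. Of 7 alveolar type 1 markers, 3 were called lower in strong CKO and none in weak CKO, with summed levels of 4475 to 4839.8 CPM, 4898 to 5763.5 CPM and 5470.2 to 7447 CPM in strong CKO, weak CKO and wild type. Airway epithelium markers went the other way, with 4 of 6 tested called higher in both CKO groups and sums of 2561 to 4164 CPM in strong CKO, 2367 to 3460.02 CPM in weak CKO and 1139 to 1812 CPM in wild type. No marker of these lists was at 0 in all libraries. Beside the counts of this and every later marker list stand the shares over all genes tested. These were 11.0% lower and 14.6% higher in strong CKO, and 5.38% lower and 9.09% higher in weak CKO. The part of these markers in the laminin results was not tested.

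The 3 laminin-binding α subunits, Itga3, Itga6 and Itga7, did not move together. Itga6, which pairs with Itgb1 or with the hemidesmosomal Itgb4, measured 244, 311 and 308 CPM in strong CKO, 277, 294 and 347 CPM in weak CKO, and 359, 386 and 409 CPM in wild type. Its log2 change was -0.42 ± 0.11 in strong CKO (SE, adjusted p = 0.0202), a call lost without MUT_S_265_5 (-0.31) or WT_549_2 (-0.37). In weak CKO the change was -0.33 ± 0.11 (SE, adjusted p = 0.0766), which was called without MUT_W_549_3 (-0.43) and with DESeq2.

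Itga7, the laminin receptor of muscle, rose. It measured 101, 91.7 and 91.7 CPM in strong CKO, 103, 87.1 and 83.6 CPM in weak CKO, and 71.5, 60.7 and 59.0 CPM in wild type. All 6 CKO libraries were above all 3 wild type libraries. The log2 change was 0.57 ± 0.10 in strong CKO (SE, adjusted p = 0.00238) and 0.52 ± 0.10 in weak CKO (SE, adjusted p = 0.00716), and both calls held at all 17 alternatives. Itga3, the epithelial α3 subunit, averaged 209 ± 12.5 CPM in strong CKO, 216 ± 17.3 CPM in weak CKO and 233 ± 31.1 CPM in wild type (SD, n = 3 each), with log2 changes of -0.16 (adjusted p = 0.272) and -0.11 (adjusted p = 0.512).

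Part of the muscle markers were called higher, as was Itga7. Of 7 smooth muscle markers, 3 were called higher in strong CKO and 2 in weak CKO, and their sum ran from 376 to 613 CPM in strong CKO, from 362 to 482 CPM in weak CKO and from 223 to 334 CPM in wild type. Of 6 striated muscle markers, 5 were called higher in strong CKO and 1 in weak CKO, with sums of 243 to 399 CPM, 241 to 333 CPM and 199 to 222 CPM in strong CKO, weak CKO and wild type. Schwann cell markers, of a cell type that also makes Itga7, summed to 8.60 to 10.96 CPM, 8.65 to 9.72 CPM and 7.20 to 7.72 CPM in the same order of groups, with 4 and 2 of 5 called higher. Itga8, Itga9 and Lama2, which muscle also makes, had log2 changes of -1.02, -0.18 and -0.60 in strong CKO. The part of muscle and Schwann cells in the rise of Itga7 or in these falls was not tested.

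The collagen-binding α subunits Itga1 and Itga2 fell, while Itga10 and Itga11, of cartilage and fibroblasts, were low and not called. Itga2 measured 44.2, 68.3 and 45.9 CPM in strong CKO, 53.5, 63.6 and 62.2 CPM in weak CKO, and 87.3, 92.5 and 89.4 CPM in wild type. MUT_S_268_4 was the highest CKO library and was still below the lowest wild type one. The log2 change of Itga2 was -0.76 ± 0.15 in strong CKO (SE, adjusted p = 0.0053), and that call held at all 17 alternatives. In weak CKO it was -0.59 ± 0.15 (SE, adjusted p = 0.029), a call lost when any 1 of the 3 weak CKO or 3 wild type libraries was left out, with values between -0.51 and -0.63.

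Itga1, the α1 subunit of vascular and mesenchymal cells, measured 191, 276 and 281 CPM in strong CKO, 262, 293 and 319.5 CPM in weak CKO, and 376, 378 and 424 CPM in wild type. The CKO libraries lay below wild type without overlap, with MUT_S_265_5 lowest. Its log2 change was -0.66 ± 0.14 in strong CKO (SE, adjusted p = 0.00752), held at all 17 alternatives. In weak CKO it was -0.43 ± 0.14 (SE, adjusted p = 0.0683), called with DESeq2 (-0.44), with only the compared groups in the fit (-0.42) and without MUT_S_265_5 (-0.43). Itga10 averaged 4.45 ± 0.60, 4.11 ± 0.80 and 4.40 ± 1.30 CPM, and Itga11 averaged 3.64 ± 0.12, 3.47 ± 0.80 and 3.41 ± 0.75 CPM, in strong CKO, weak CKO and wild type (SD, n = 3 each). A same-strand gene model shares 33.5% of the exon bases of Itga10, so its counts are uncertain.

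Itga8 is 1 of the α subunits that bind the RGD motif of fibronectin and related ligands. Its log2 change against wild type was the lowest of all 36 genes in both CKO groups. It encodes α8, a mesenchymal and smooth muscle receptor known for binding nephronectin. Itga8 measured 125, 139 and 119.9 CPM in strong CKO, 152, 160.1 and 151.5 CPM in weak CKO, and 304, 248 and 224 CPM in wild type. The 3 groups did not overlap, with strong CKO lowest and wild type highest. The log2 change was -1.02 ± 0.11 in strong CKO (SE, adjusted p = 0.00013) and -0.74 ± 0.10 in weak CKO (SE, adjusted p = 0.00129), both held at all 17 alternatives. Strong against weak CKO, it was -0.27 ± 0.10 (SE), with an unadjusted p of 0.0256 and an adjusted p of 0.873. As a share of the summed RPKM of the 17 α subunits, Itga8 made up 8.65 ± 0.67% in strong CKO, 9.75 ± 0.30% in weak CKO and 13.5 ± 1.92% in wild type (SD, n = 3 each).

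The other RGD-binding α subunits moved less. Itgav, the α subunit shared by receptors that activate latent TGF-β, averaged 157 ± 2.41 CPM in strong CKO, 165 ± 1.89 CPM in weak CKO and 178 ± 9.41 CPM in wild type (SD, n = 3 each). Its change was -0.19 ± 0.06 in strong CKO (SE, adjusted p = 0.034), a call that only 5 of 17 alternatives kept, and it was lost without any of the 7 libraries other than MUT_W_549_3 and WT_549_2, with values between -0.15 and -0.19. Itga5, the main fibronectin receptor subunit, averaged 68.4 ± 3.51, 69.7 ± 7.80 and 77.0 ± 4.94 CPM in strong CKO, weak CKO and wild type (SD, n = 3 each), with a log2 change of -0.17 in strong CKO (adjusted p = 0.179).

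Of the 36 genes, 23 had a promoter window in the RefSeq table (GRCm38.p6), in 26 windows. CG dinucleotides, the sites that Dnmt1 keeps methylated, numbered 0 to 22 in the 250 bases before the start, with a median of 10; over all 32851 promoters the median was 6, and 92.1% held at least 1. The windows of Itga8 and Itga2 are shown because both genes fell in both CKO groups and neither window overlaps an exon of its own gene. Methylation was not measured in these samples. Itga8 lies on chromosome 2 from 12106632 to 12301922 on the minus strand, and its window, chr2:12301945-12302194, held 18 CG dinucleotides, a count that 21.7% of all promoters reach. Itga2 lies on chromosome 13 from 114833081 to 114932100 on the minus strand, and its window, chr13:114932101-114932350, held 12, a count that 33.5% of all promoters reach. Each is written from 5′ to 3′ on the gene's strand with the CG dinucleotides in capitals.
Itga8: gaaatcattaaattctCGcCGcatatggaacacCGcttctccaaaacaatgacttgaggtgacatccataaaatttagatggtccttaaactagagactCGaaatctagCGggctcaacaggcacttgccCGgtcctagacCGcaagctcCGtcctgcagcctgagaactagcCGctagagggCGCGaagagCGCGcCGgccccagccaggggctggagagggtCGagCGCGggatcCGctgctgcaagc
Itga2: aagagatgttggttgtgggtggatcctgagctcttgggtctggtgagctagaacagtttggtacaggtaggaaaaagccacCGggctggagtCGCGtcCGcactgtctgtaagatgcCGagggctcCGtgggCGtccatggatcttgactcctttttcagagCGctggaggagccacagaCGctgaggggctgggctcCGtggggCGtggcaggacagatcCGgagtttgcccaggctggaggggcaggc

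The exons of the antisense transcript E030013I19Rik share 5.05% of the exon bases of Itga8. That transcript had at most 104 counts in any library, against 3319 or more for Itga8, and the sources used here do not give the strandedness of the counts. Itgb8, which rose, lies on chromosome 12 from 119158022 to 119238802, and its window held 12 CG dinucleotides and lay inside its first annotated exon. Lama2 had no CG in its window, and Lamb2 had 3.

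Itga4 and Itga9, which bind VCAM-1, fibronectin and tenascin, were both called lower in strong CKO and in neither case in weak CKO. Itga4, of leukocytes and the early mesothelium, measured 29.7, 52.2 and 46.8 CPM in strong CKO, 48.5, 57.5 and 56.3 CPM in weak CKO, and 64.2, 76.1 and 71.1 CPM in wild type. MUT_S_265_5 had the lowest value, and no CKO library reached wild type. The log2 change was -0.72 ± 0.18 in strong CKO (SE, adjusted p = 0.0174), lost without WT_268_1 (-0.66) or WT_549_2 (-0.71). In weak CKO it was -0.38 ± 0.18 (SE, adjusted p = 0.195), called without MUT_S_265_5 (-0.38) and with only the compared groups in the fit. An antisense neighbour, Cerkl, shares 8.04% of its exon bases.

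Itga9, known from lymphatic vessels and smooth muscle, had the highest level per length of this pair. It measured 199, 199 and 211 CPM in strong CKO, 209, 228 and 211 CPM in weak CKO, and 234, 226 and 229.8 CPM in wild type. Strong CKO lay below wild type without overlap, whereas weak CKO overlapped it. The change was -0.18 ± 0.06 in strong CKO (SE, adjusted p = 0.0468), and the call was lost at 14 of 17 alternatives, including the omission of any 1 of the 9 libraries (-0.16 to -0.20).

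Most endothelial and lung mesenchyme markers were called lower in strong CKO, and fewer in weak CKO. All 10 endothelial markers were called lower in strong CKO and 6 in weak CKO, and their sum ran from 1751 to 2161 CPM in strong CKO, from 2285 to 2419 CPM in weak CKO and from 2649.8 to 3291 CPM in wild type. Of 8 lung mesenchyme markers, 6 were called lower and 1 higher in strong CKO, and 4 lower and 1 higher in weak CKO. Their sum went the other way, since most of it came from the collagens Col1a1 and Col1a2, of which Col1a2 rose. It averaged 4051 CPM in strong CKO, 3915 CPM in weak CKO and 3615 CPM in wild type, and ran from 3769 to 4274 CPM in strong CKO, from 3819 to 4065 CPM in weak CKO and from 3373 to 4070.3 CPM in wild type. Of 6 pericyte markers, 3 were called higher and 2 lower in strong CKO, and 3 higher and 1 lower in weak CKO. Of 5 mesothelial markers, 1 was called higher and 0 lower in each CKO group. The part of any of these cells in the falls of Itga8, Itga1, Itga4, Lama2 and Lama4 was not tested.

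**Figure D4:**
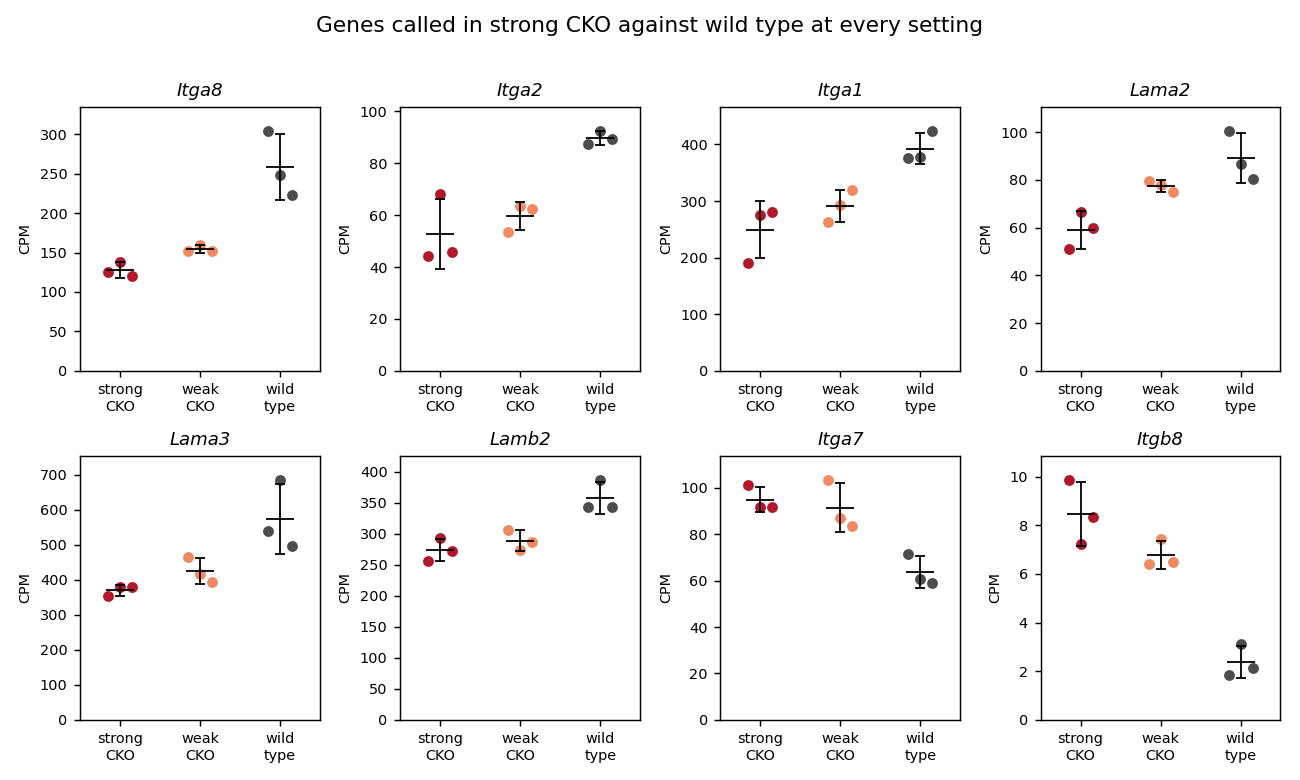
CPM per library of genes whose call in strong CKO held at all 17 alternatives; points are libraries, and bars are the mean and SD of 3 libraries, with strong CKO, weak CKO and wild type from left to right. In the panels of Itga8, Itga2, Itga1, Lama2, Lama3 and Lamb2 the strong CKO points lie below all wild type points, and in the Itga7 and Itgb8 panels all CKO points lie above wild type.

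Integrin β subunits showed 1 rise and 1 fall in strong CKO, and 1 rise in weak CKO. Itgb8, which pairs with αv and binds latent TGF-β, rose from a low level. It measured 9.87, 7.24 and 8.36 CPM in strong CKO, 6.40, 7.43 and 6.49 CPM in weak CKO, and 1.85, 3.13 and 2.15 CPM in wild type, which were 203 to 262, 188 to 249 and 53 to 97 counts per library. Every CKO library was above every wild type library. The log2 change was 1.83 ± 0.20 in strong CKO (SE, adjusted p = 0.00021) and 1.51 ± 0.20 in weak CKO (SE, adjusted p = 0.00102), held at all 17 alternatives. On log2(RPKM + 1) the changes were 0.42 and 0.32, since that scale understates the change of genes below 1 RPKM. As a share of the summed RPKM of the αv partners Itgb3, Itgb5, Itgb6 and Itgb8, Itgb8 made up 4.04 ± 0.82% in strong CKO, 3.03 ± 0.34% in weak CKO and 1.02 ± 0.37% in wild type (SD, n = 3 each).

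Itgb6, the epithelial αv partner, averaged 88.4 ± 13.1 CPM in strong CKO, 93.4 ± 13.9 CPM in weak CKO and 117 ± 9.32 CPM in wild type (SD, n = 3 each). Its change in strong CKO was -0.40 ± 0.13 (SE, adjusted p = 0.0425), a call lost at 8 alternatives: without MUT_S_265_5 (-0.34), MUT_S_860_3 (-0.33), MUT_W_268_3 (-0.40), WT_265_1 (-0.37) or WT_268_1 (-0.37), with no filter and in both limma fits. Itgb1 measured 1106, 1206 and 1121 CPM in strong CKO, 1283, 1297 and 1276 CPM in weak CKO, and 1482, 1384 and 1230.3 CPM in wild type. Strong CKO lay below both other groups, and weak CKO overlapped wild type. Its change was -0.25 ± 0.09 in strong CKO (SE, adjusted p = 0.055) and -0.09 ± 0.09 in weak CKO (SE, adjusted p = 0.563), and the first was called with DESeq2 (-0.26) and without WT_549_2 (-0.33).

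Itgb5, another αv partner, averaged 66.99 ± 2.53, 75.4 ± 2.71 and 72.6 ± 15.4 CPM in strong CKO, weak CKO and wild type (SD, n = 3 each), with log2 changes of -0.12 (adjusted p = 0.528) and 0.06 (adjusted p = 0.808). Itgb4, the hemidesmosomal partner of α6, averaged 27.3 ± 7.31, 23.8 ± 6.90 and 17.1 ± 5.56 CPM, with log2 changes of 0.67 (adjusted p = 0.142) and 0.48 (adjusted p = 0.354). The strong CKO libraries of Itgb4 lay above wild type, by 22.4 against 21.5 CPM at the nearest, and weak CKO overlapped both. The Itgb5 libraries of both CKO groups overlapped wild type.

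Integrins of blood cells were low, and 1 of them was called. Itgam, the αM subunit of macrophages and neutrophils, measured 3.92, 2.96 and 4.31 CPM in strong CKO, 3.58, 3.22 and 3.04 CPM in weak CKO, and 2.55, 2.39 and 2.58 CPM in wild type, so that all CKO libraries were above wild type. Its change was 0.57 ± 0.18 in strong CKO (SE, adjusted p = 0.0374) and 0.39 ± 0.18 in weak CKO (SE, adjusted p = 0.182). The strong CKO call was lost at 10 alternatives, among them without MUT_S_265_5 (0.54), MUT_S_860_3 (0.46), MUT_W_268_3 (0.58), WT_265_1 (0.59), WT_268_1 (0.54) or WT_549_2 (0.60), with only the compared groups in the fit (0.58) and on log2(RPKM + 1) (0.08) or log2(RPKM + 0.1) (0.36). A same-strand gene model, Gm49368, which was not analysed here, covers 68.7% of the exon bases of Itgam. How reads in the shared exons were counted is not known.

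Itgal, the αL subunit of lymphocytes and other leukocytes, measured 15.6, 18.8 and 30.5 CPM in strong CKO, 24.7, 21.1 and 14.6 CPM in weak CKO, and 20.4, 12.1 and 14.999 CPM in wild type. The groups overlapped, and the log2 changes were 0.45 ± 0.30 (SE, adjusted p = 0.301) and 0.35 ± 0.30 (SE, adjusted p = 0.493). Itgax, of dendritic cells and alveolar macrophages, had changes of 0.68 (adjusted p = 0.191) and 0.86 (adjusted p = 0.138), and the weak CKO change was called without MUT_W_549_3 (1.19). Itgb2, the β subunit of αL, αM and αX, averaged 20.2 ± 3.73 CPM in strong CKO, 20.8 ± 4.69 CPM in weak CKO and 16.5 ± 4.81 CPM in wild type (SD, n = 3 each), with changes of 0.30 (adjusted p = 0.38) and 0.34 (adjusted p = 0.38). Itgae, of intraepithelial lymphocytes, averaged 1.47 ± 0.12, 1.35 ± 0.14 and 1.54 ± 0.25 CPM, and Itgb7, its partner, 3.02 ± 1.62, 2.16 ± 0.455 and 2.05 ± 0.38 CPM, in strong CKO, weak CKO and wild type (SD, n = 3 each), and neither was called.

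Markers of leukocytes went different ways. Of 9 macrophage markers, 7 were called higher in strong CKO and 6 in weak CKO, with sums of 332 to 429 CPM in strong CKO, 335 to 409.5 CPM in weak CKO and 198.6 to 268.2 CPM in wild type. Neutrophil markers had sums of 15.1 to 24.6 CPM in strong CKO, 15.4 to 29.1 CPM in weak CKO and 21.4 to 55.7 CPM in wild type. Both CKO groups overlapped wild type, where WT_265_1 was highest. Of 5 neutrophil markers tested, 1 was called lower in each CKO group. Dendritic cell markers summed to 41.1 to 59.2 CPM, 56.9 to 67.1 CPM and 76.9 to 94.9 CPM in strong CKO, weak CKO and wild type, with 2 of 4 called lower and 1 called higher in each CKO group. Lymphocyte markers summed to at most 3.43 CPM in any library, and none of 4 tested was called. The part of these cells in the rise of Itgam was not tested.

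Itga2b and Itgb3 form the fibrinogen receptor of platelets and megakaryocytes. Itga2b measured 14.4, 14.4 and 23.9 CPM in strong CKO, 6.98, 11.4 and 9.15 CPM in weak CKO, and 10.9, 8.62 and 12.4 CPM in wild type. Strong CKO lay above both other groups, which overlapped each other. The log2 change was 0.73 ± 0.24 in strong CKO against wild type (SE, adjusted p = 0.0538), called with DESeq2 (0.72) and without MUT_S_268_4 (0.86), MUT_W_265_2 (0.73) or MUT_W_268_3 (0.73), and -0.21 ± 0.25 in weak CKO (SE, adjusted p = 0.631). Strong against weak CKO it was 0.94 ± 0.24 (SE), with an unadjusted p of 0.00358 and an adjusted p of 0.873. Itgb3, which vascular and mesenchymal cells also use, averaged 24.7 ± 6.41, 23.5 ± 2.65 and 26.9 ± 2.99 CPM in strong CKO, weak CKO and wild type (SD, n = 3 each), with a change of -0.12 in strong CKO (adjusted p = 0.649).

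Platelet and erythroid markers were mostly not called, as was Itga2b. Of 7 platelet markers, 1 was called higher in strong CKO, Pf4, and none in weak CKO, with sums of 26.6 to 40.2 CPM in strong CKO, 19.7 to 25.7 CPM in weak CKO and 14.2 to 22.5 CPM in wild type. Erythroid markers summed to 6763 to 12694 CPM in strong CKO, 3777 to 4394 CPM in weak CKO and 3949 to 7399 CPM in wild type, with none of 8 called and strong CKO overlapping wild type. MUT_S_860_3 had the highest erythroid sum and the highest Itga2b. The part of blood content in the Itga2b values was not tested. With the haemoglobin genes left out before library sizes were taken, 15 genes of the 36 still fell and 3 rose in strong CKO.

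**Figure D5:**
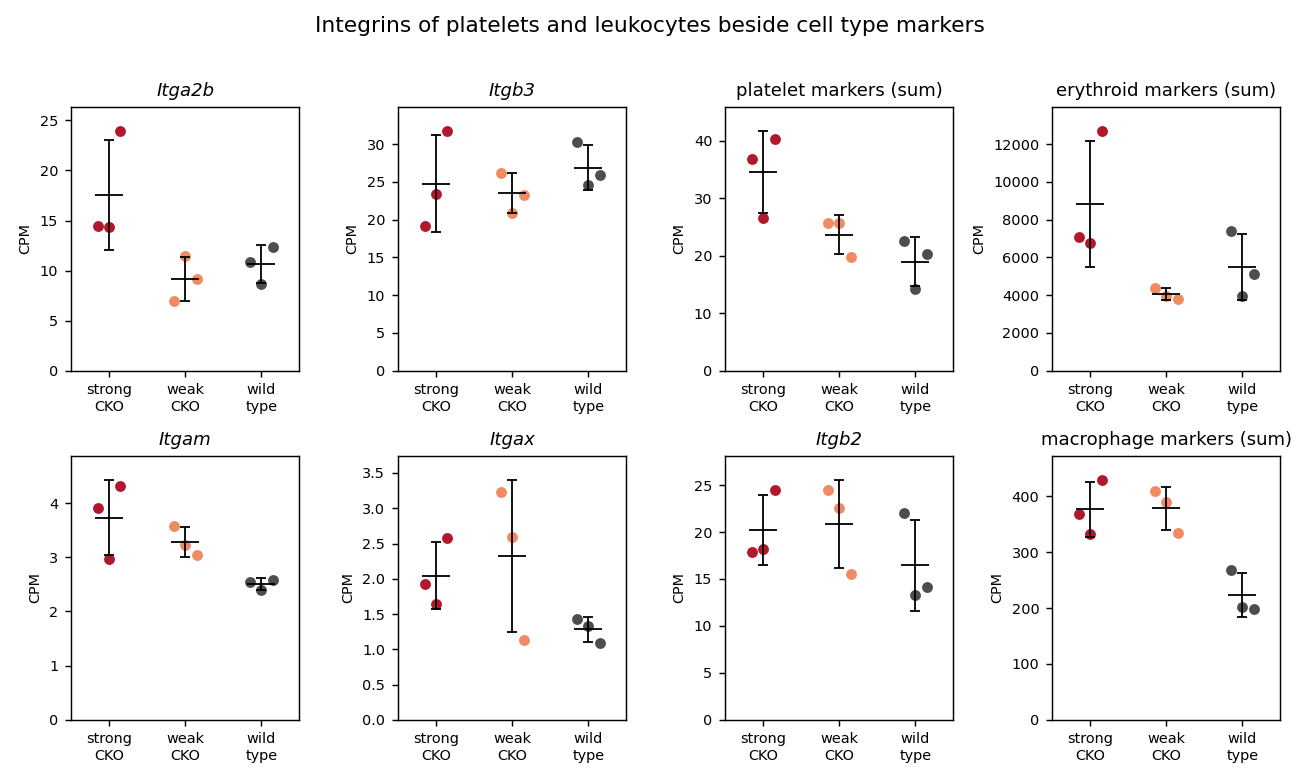
CPM per library of platelet integrins (upper row, left) and leukocyte integrins (lower row, left) beside summed markers of platelets, erythroid cells and macrophages; points are libraries, and bars are the mean and SD of 3 libraries, with strong CKO, weak CKO and wild type from left to right. Itga2b and the platelet sum are higher in the 3 strong CKO libraries than in all others, and the macrophage sum is higher in the 6 CKO libraries than in the 3 wild type libraries.

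Strong against weak CKO, none of the 36 genes was called with edgeR's quasi-likelihood test or with DESeq2, and 3 had an unadjusted p under 0.05 (Itga2b, Itga8 and Lama2). Over all genes tested, 0% were called higher and 0.00516% lower, 0.00516% either way. Strong CKO lay wholly below weak CKO for 6 of the genes and wholly above it for 1, Itga2b, where 6.73% and 6.70% of all genes did so. The median log2 change over the 36 genes was -0.08, and all 11 laminins had a negative one, between -0.04 and -0.39. A p that misses the threshold does not show that the CKO groups are alike.

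Adaptors link integrin tails to actin. Of 30 adaptor and focal adhesion genes, 15 fell and 2 rose in strong CKO, with a median log2 change of -0.28, and 8 fell and 2 rose in weak CKO, with a median of -0.21. Without MUT_W_265_2 the number that fell in weak CKO was 5, and without MUT_W_268_3 it was 4. Of all genes tested, 11.0% fell and 14.6% rose in strong CKO, and 5.38% fell and 9.09% rose in weak CKO. The same shares stand beside the counts of the lists that follow. Tns1, the tensin 1 adaptor, averaged 909 ± 71.9 CPM in strong CKO, 1061 ± 91.5 CPM in weak CKO and 1895 ± 114 CPM in wild type (SD, n = 3 each), with log2 changes of -1.06 (adjusted p = 6.5e-05) and -0.84 (adjusted p = 0.00042). Tns2, a related tensin, fell by 0.61 in strong CKO and by 0.47 in weak CKO on the log2 scale, and Fermt2, the kindlin of mesenchymal cells that activates integrins, by 0.67 and 0.40. The weak CKO call of Fermt2 was lost without MUT_W_265_2 (-0.36) or MUT_W_268_3 (-0.39).

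The 2 adaptors that rose, in both groups, were Fermt1 and Tln2. Fermt1, the epithelial kindlin, averaged 7.82 ± 0.40 CPM in strong CKO, 7.03 ± 0.96 CPM in weak CKO and 3.18 ± 0.78 CPM in wild type (SD, n = 3 each), with log2 changes of 1.30 and 1.15. Tln2, the talin of muscle and brain, had changes of 0.54 and 0.65, and the widely used talin Tln1, named after its values were seen, fell by 0.30 in strong CKO, a call lost without MUT_S_265_5 (-0.25). Counts of Ilk, the integrin-linked kinase, were at most 0.702 CPM. Taf10, on the other strand, overlaps 76.7% of its exon bases. How reads in shared bases were counted is not known, so these counts should not be read as the level of Ilk. The part of the overlap in them was not tested.

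Basement membrane partners of laminins fell in part. Of 18 such genes, 5 fell and 1 rose in strong CKO, and 2 fell and 1 rose in weak CKO. The number that fell in strong CKO was 2 without MUT_S_265_5, MUT_S_860_3 or WT_268_1, 3 without MUT_S_268_4 and in both limma fits, and 9 with DESeq2; in weak CKO it was 4 without WT_549_2. Frem1, a matrix protein that joins Fras1 and Frem2 under embryonic epithelium, averaged 199.6 ± 36.1 CPM in strong CKO, 226 ± 15.4 CPM in weak CKO and 504 ± 89.9 CPM in wild type (SD, n = 3 each), with log2 changes of -1.34 and -1.16. Ntn4, a netrin that binds laminin γ chains, fell by 0.95 and 0.82 on the log2 scale. Nid1, the nidogen that links laminin to collagen IV, rose by 0.31 in strong CKO and by 0.36 in weak CKO. The strong CKO call of Nid1 was lost without MUT_S_860_3 (0.27), and the weak CKO call without MUT_W_268_3 (0.32). The collagen IV chains Col4a1 and Col4a2, also named after their values were seen, were not called, with changes of -0.25 and -0.27 in strong CKO. At alternatives, Col4a1 was called lower with DESeq2 (-0.26) and Col4a2 with the replicate block (-0.37). Col4a3, Col4a4 and Col4a5, likewise called only at alternatives, were called lower with DESeq2 (-0.48, -0.49 and -0.42).

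Of 11 laminin receptors other than integrins, 2 rose and 3 fell in strong CKO, and 2 rose and 1 fell in weak CKO. Without MUT_S_265_5 only 1 fell in strong CKO. Over all genes tested, 14.6% rose and 11.0% fell in strong CKO, and 9.09% rose and 5.38% fell in weak CKO. Sgcb, the β-sarcoglycan of muscle membranes, rose by 0.46 and 0.41 on the log2 scale, and Sgcd, the δ-sarcoglycan, by 1.14 and 1.02. The weak CKO call of Sgcd was lost without MUT_W_265_2 (1.02), MUT_W_268_3 (0.89) or WT_549_2 (0.88). Dmd, dystrophin, fell by 0.39 in strong CKO (adjusted p = 0.00549) and was the 1 gene that fell in weak CKO, by 0.27 (adjusted p = 0.0471). The weak CKO call of Dmd was lost at 11 alternatives, 8 of them the omission of any library but MUT_S_268_4, with values between -0.24 and -0.29. Among the 4 hemidesmosome genes, 3 fell in strong CKO and 2 in weak CKO. The strong CKO fall of Plec was not called without MUT_S_265_5, MUT_S_268_4, MUT_S_860_3, MUT_W_268_3 or WT_268_1 (-0.18 to -0.25). That call was also lost with only the compared groups in the fit, with the replicate block and in both limma fits. Col17a1, a collagen of hemidesmosomes, averaged 5.60 ± 0.17, 5.79 ± 0.88 and 10.5 ± 2.34 CPM in strong CKO, weak CKO and wild type (SD, n = 3 each), and Dst, which encodes the BPAG1 plakin, had changes of -0.45 and -0.26, the second lost at 8 alternatives, 6 of them the omission of MUT_S_268_4, MUT_W_265_2, MUT_W_268_3, MUT_W_549_3, WT_268_1 or WT_549_2 (-0.24 to -0.28).

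Other integrin ligands moved both ways: of 21, 7 rose and 7 fell in strong CKO, and 6 rose and 3 fell in weak CKO. The number that rose in weak CKO was 1 without WT_549_2, 2 without MUT_W_265_2 or MUT_W_268_3 and 3 without MUT_W_549_3, and 6 fell there with DESeq2. Fn1, fibronectin, averaged 1897 ± 82.0 CPM in strong CKO, 2360 ± 570.0 CPM in weak CKO and 5637 ± 1287 CPM in wild type (SD, n = 3 each), with log2 changes of -1.57 (adjusted p = 0.00047) and -1.26 (adjusted p = 0.00268). Npnt, the nephronectin ligand of α8 and likewise named after its values were seen, had changes of -0.49 (adjusted p = 0.00206) and -0.26 (adjusted p = 0.0548). Egfl6, another RGD ligand, fell by 0.87 and 0.63 on the log2 scale. Tgfb3, whose latent form is a ligand of αv integrins, rose by 0.61 and 0.47, and Icam1, a ligand of the leukocyte integrins, by 0.52 and 0.32. The weak CKO call of Icam1 was lost at 4 alternatives, without MUT_W_265_2 (0.30), MUT_W_268_3 (0.33), WT_268_1 (0.28) or WT_549_2 (0.31).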

How the data were processed

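RNA of 9 whole lungs was sequenced as single reads of 75 nt. Per the file headers, the authors deposited raw counts per gene and, beside them, RPKM made with a gene length that the same table gives. The submitters' processing notes name the aligner STAR with the build GRCm38.p6, edgeR 3.28.1, the trimmers Trimmomatic 0.36 and cutadapt 2.5, and FastQC 0.11.8. The counting tool, annotation release and strandedness are not given in the sources used here.

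Deposited counts were scaled by TMM, filtered by edgeR's expression filter and tested with edgeR 4.0.16 (quasi-likelihood test, R 4.3.3) in 1 model over the 3 groups, with Benjamini-Hochberg adjustment over 19374 genes. Library totals were 25607595 to 33156732 counts, and the common biological coefficient of variation was 0.15. RPKM served for levels and shares, and in limma 3.58.1 as an alternative, with pseudocounts of 1 and 0.1. DESeq2 1.42.0, its size factors, no filter, fits of the compared groups alone, a replicate block, omission of haemoglobin genes and of each library were the other alternatives. The length check with merged GENCODE M21 exons was added after the data were seen. The fits were tested on simulated data.

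Members and lists were chosen with earlier results of these data known. 1 member counted in the totals is not reported here by itself. Per-library values were planned for members called with a log2 change of at least 0.5 and for the highest member of each role, and up to 4 called genes of smallest adjusted p per neighbouring list were named. The labels do not say that lungs came from separate litters, so p-values measure only the spread between these samples.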

Additional observations from a re-analysis of the deposited data

How the results depend on the processing

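Of 25 member calls against wild type, 13 held at all 17 alternatives, and no called member value changed sign at any of them. Of 68 member values called at no setting, 23 changed sign at some setting, the largest reaching 0.31 on the log2 scale. With the replicate block, 10 members fell in weak CKO in place of 5. In strong CKO the block added calls of Lama1 (-0.79), Itgb4 (0.58) and Itga3 (-0.26) and removed those of Itgav (-0.20), Itga9 (-0.22) and Itgam (0.43). In weak CKO it added calls of Itga1 (-0.43), Itga4 (-0.38), Itga6 (-0.33), Itgb6 (-0.33), Itgb4 (0.49) and Lamb3 (-0.28), and of Dnmt1 (-0.50). Among neighbouring lists, it gave 8 falls and no rise of basement membrane partners and 4 rises and 5 falls of other ligands in strong CKO, and 13 falls of adaptors and 2 of other laminin receptors in weak CKO. Of all genes, strong against weak CKO, 1 was called, against 16 with DESeq2, 4 with only the compared groups in the fit, 3 with the replicate block and 2 with limma on log2(RPKM + 0.1). Leaving out 1 library at a time gave 3101 to 4983 called genes in strong CKO (4969 with all libraries), 1310 to 2828 in weak CKO (2803) and 1 to 4 in strong against weak CKO. In the same runs 9 to 14 members fell and 2 to 4 rose in strong CKO, 2 to 7 fell and 2 to 3 rose in weak CKO, and 0 were called in strong against weak CKO. Same-numbered libraries did not deviate together in every pair: between weak CKO and wild type the correlations were 0.30, -0.09 and 0.35. Between differently numbered libraries of these groups they ran from -0.38 to 0.07. Between strong CKO and wild type they were 0.11 and 0.08 for the same number, and -0.13 to 0.07 for different numbers. Between strong and weak CKO they were 0.17 and -0.0005 for the same number, and -0.20 to 0.19 for different numbers. The labels do not say what the numbers stand for, so the numbers were not taken as pairs and the block is only an alternative. Beyond these correlations, whether same-numbered libraries share a source of spread was not tested. The cause of the changes in calls between settings was not tested. The Itgae and Itgax values rest on 36 to 53 and 35 to 95 counts per library.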
